A study of Mus musculus with 5 samples.

Results

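Contacts between a bait in the Dppa2/4 domain and the far downstream end of mouse chromosome 16 were compared between the 129 and the CAST chromosome of hybrid embryonic stem cells. Far downstream means over 10 Mb from the bait towards higher coordinates, with the bait taken at 48345000 (mm10), so the region runs from 58345001 to 98210000. It was divided into 80 bins of 500 kb, of 197 such bins on chromosome 16 and 5450 in the whole table. Position alone chose the bins, and the last one is cut short by the end of the table.

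The series asks which elements in cis set when and where a chromosome domain is replicated. Both alleles come from the same 2 libraries, clones A6 and E2 of a cas/129 hybrid line, and the authors split each library into a 129 column (headed svim) and a CAST column. Per the labels, both clones carry CRISPR deletions of 3 intervals on chromosome 16 (mm10), at 48308399 to 48311882, 48396806 to 48437301 and 48581359 to 48620367. They were kept in DMEM with LIF and 2i, a pair of kinase inhibitors that hold embryonic stem cells in an undifferentiated state. The labels do not say which chromosome was cut. Windows lying wholly inside the second interval held 6 reads in A6 and 8 in E2 on 129, against 7361 and 13326 on CAST. In the third interval they held 1 and 5 reads on 129, against 2519 and 7039 on CAST. No window lay wholly inside the first interval. The strain of a chromosome and the deletions it carries therefore cannot be told apart in these clones. Each clone is 1 clonal line measured in 1 library, and nothing in the labels says that the clones came from separate edits. The p-values below therefore measure how the allele difference varied between these 2 libraries, over bins of like level. That variation may be technical. An unedited hybrid line was not analysed here.

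In 4C-seq, chromatin is fixed, cut with a restriction enzyme and ligated, and an inverse PCR from 1 bait fragment reads out which fragments lay near it. Contacts thin out with distance, and at long range chromosomes tend to fold so that gene-rich, early-replicating chromatin meets its like and gene-poor, late-replicating chromatin meets its like. The far downstream end of chromosome 16 holds both kinds. Long stretches with few genes around the neural adhesion genes Cadm2, Robo1, Robo2 and Ncam2 are followed by a gene-dense end with the keratin-associated protein genes, the interferon receptor genes and the genes from Olig1 to Dscam.

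The bait primers are shown because they fix the viewpoint from which every contact was read. They are the pair listed as bait sequence for both clones, written 5′ to 3′, with capitals for the bases at the 3′ end of the forward primer that begin the HindIII site AAGCTT.
forward primer: tttgggattttggagtgAAGC
reverse primer: ctgctggacttgtcaactgaa
The forward primer ends with 4 bases of that site, so its reads start at a HindIII end. Neither primer matched any of 32851 RefSeq promoter windows on either strand. The protocol in the labels names another primer pair, and without a genome sequence the bait position could not be checked against either.

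A fragment can be seen only from its HindIII end, so the position of AAGCTT sets where reads can fall. The motif was searched in the 300 bases around each gene start in RefSeq (GRCm38.p6, 250 before and 50 after; the motif reads the same on both strands). It was in 9 of 220 far downstream promoter windows (4.09%), against 2449 of 32851 promoter windows of all genes (7.45%). A pair of such promoters are shown, 5′ to 3′ on the gene's strand with the site in capitals, because they lie in the gene clusters described below. Krtap19-3 encodes a keratin-associated protein of the hair shaft, and its promoter lies at chr16:88877989-88878288 on the minus strand. Olfr205 encodes an olfactory receptor, and its promoter lies at chr16:59329458-59329757 on the minus strand.
Krtap19-3: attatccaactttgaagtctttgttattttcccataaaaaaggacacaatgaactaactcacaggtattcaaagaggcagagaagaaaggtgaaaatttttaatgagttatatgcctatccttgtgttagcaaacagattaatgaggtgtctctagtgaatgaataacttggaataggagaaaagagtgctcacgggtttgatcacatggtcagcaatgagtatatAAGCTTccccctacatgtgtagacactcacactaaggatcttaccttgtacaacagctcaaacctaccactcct
Olfr205: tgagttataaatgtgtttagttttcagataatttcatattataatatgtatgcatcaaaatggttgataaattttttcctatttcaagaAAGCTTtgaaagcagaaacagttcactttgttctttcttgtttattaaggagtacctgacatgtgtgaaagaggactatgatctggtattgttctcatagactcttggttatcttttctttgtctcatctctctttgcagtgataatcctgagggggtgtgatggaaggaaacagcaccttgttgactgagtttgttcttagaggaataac
In the Krtap19-3 promoter the site starts at base 227 of the window, close before the gene start. The 5-kb window holding it had 25 reads in A6 and 59 in E2 on 129, against 150 and 42 on CAST. The 5-kb window of the Olfr205 promoter had 0 reads on both alleles of both clones, although its site starts at base 90. A match of these letters is a description and no measure of contact.

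The values are RPM, reads scaled to a fixed total, in windows of 5 kb, deposited as a running mean over 30 windows (150 kb). The smallest step of the values was 0.0170 RPM in A6 and 0.0138 in E2 on 129, against 0.0252 and 0.0207 on CAST. Each allele column thus appears scaled to its own total, and ratios of RPM between alleles are relative to those totals. Undoing the running mean gave whole reads, and these numbered 1937280 in A6 and 2397572 in E2 on 129, against 1311580 and 1603247 on CAST. Of the 7973 far downstream windows, 20.1% held reads on 129 in each clone, against 13.6% in A6 and 13.8% in E2 on CAST. The region held 109631 reads in A6 and 131652 in E2 on 129, against 62186 and 70203 on CAST. Reads carry no molecular identifiers, so intervals below cover counting error alone.

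The first question was how much of the contact signal each allele sent to this region. The region took a higher share on 129 over all windows, with 23.3% ± 0.90 of the chromosome 16 signal on 129 and 19.6% ± 1.23 on CAST (SD, n = 2 clones). The log2 ratio of 129 to CAST shares was 0.22 in A6 and 0.27 in E2. Both clones went the same way, but 2 paired clones cannot go below p = 0.5 in an exact two-sided permutation test, so this ratio has no test. Over windows read on both alleles the ratio was -0.03 in A6 and 0.06 in E2, so there the clones went opposite ways. Averaged over the region, a window had 6.91 ± 0.15 RPM on 129, against 5.68 ± 0.31 RPM on CAST.

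The excess lay mainly in the 10 Mb of the region nearest the bait. From 10 to 20 Mb beyond the bait, a stretch from the olfactory receptor genes to Cadm2, 129 had 7.03% ± 0.76 of the chromosome 16 signal and CAST had 4.61% ± 0.17, a log2 ratio of 0.60 ± 0.10. From 20 to 30 Mb, over Robo1 and Robo2, the ratio was 0.06 ± 0.05. From 30 to 40 Mb, from Ncam2 to App and Bach1, it was 0.23 ± 0.14. Over 40 Mb away, in the gene-dense end with 135 of the 219 protein-coding gene starts, the clones went opposite ways, with a ratio of -0.08 in A6 and 0.19 in E2.

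**Figure D1:**
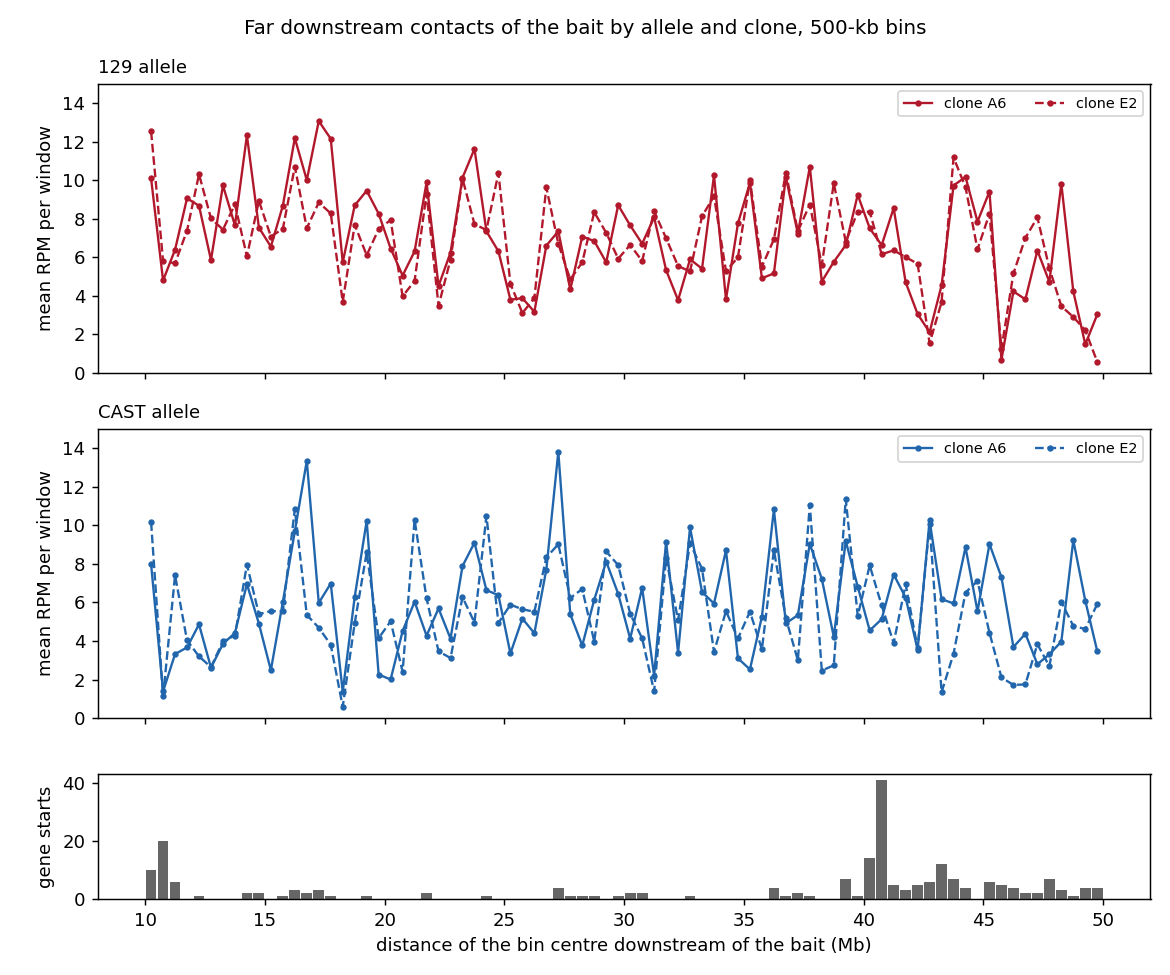
Mean RPM per 5-kb window in each of the 80 bins, with 129 above and CAST below it, plotted against the distance of the bin centre from the bait in Mb; the lowest panel counts protein-coding gene starts per bin. Solid and dashed lines are clones A6 and E2, and the clones follow each other more closely on 129 than on CAST.

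Levels of single bins spread widely on both alleles. On 129 they ran between 0.691 and 13.1 RPM in A6 (median 6.67) and between 0.582 and 12.5 RPM in E2 (median 6.96). On CAST they ran between 1.36 and 13.8 RPM in A6 (median 5.81) and between 0.597 and 11.4 RPM in E2 (median 5.24). Over the 80 bins, on the log2 scale, the 129 values of the clones correlated with Pearson's r = 0.75 and the CAST values with r = 0.55. Between the alleles of a clone r was 0.10 in A6 and 0.13 in E2, although these share a library. As a description, high and low bins were shared more between clones than between alleles. The points share fragment positions within an allele and depth within a column.

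The second question was which bins differed between the alleles. Of the 80 bins, 41 were higher on 129 in both clones, and 34.2% of all 4856 bins tested in the table were. Another 17 were higher on CAST in both clones (33.2% of all bins), and the clones differed in direction in the other 22. In 34 bins both 129 values lay above both CAST values, against 27.9% of all bins, and in 16 bins both lay below, against 26.3%. The far upstream end of the chromosome, over 10 Mb on the other side of the bait, had 11 of 70 tested bins higher on 129 in both clones and 33 higher on CAST.

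A limma fit over all bins of the table, on log2(RPM + 0.5) with clone as a block, put 7 of the 80 bins past a Benjamini-Hochberg adjusted p of 0.05. That is 8.75% of the region, close to the 8.61% called over the whole table. Of these, 5 were higher and 2 lower on 129, where the whole table has 4.3% in each direction. The median log2 ratio of the 80 bins was 0.37, beside 0.02 for all bins, and the median standard error of a bin was 0.41. With each column scaled to its median over the region, the median ratio was 0.10 and 6 bins passed, 2 higher and 4 lower. With edgeR's quasi-likelihood test on the recovered reads 6 of the 80 bins passed, where 15.3% of all bins did. Over windows read on both alleles, limma called 0 of the 80 (11 at an unadjusted p under 0.05, where all windows gave 23), and the median ratio was -0.24 in the region and -0.32 over all bins. Log2 ratios from limma are on the log2(RPM + 0.5) scale and understate the ratios of low bins.

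The bin with the highest limma log2 ratio, 129 to CAST, lies in a gene desert. Its log2 ratios of plain RPM, 1.87 in A6 and 2.60 in E2, were below those of a bin inside Cadm2, 2.07 and 2.62. In the desert bin, at 79345001 to 79845000, RPM was 8.07 in A6 and 8.39 in E2 on 129, against 2.20 and 1.38 on CAST. It lies between Tmprss15, a gut serine protease gene, and the neural adhesion gene Ncam2. The alleles did not overlap, and the log2 ratio was 1.95 (SE 0.48, limma adjusted p = 0.00453). Its own reads, with the running mean undone, were 1557 and 2100 on 129, against 227 and 156 on CAST. The window with most CAST reads held 107 of 227 in A6 and 16 of 156 in E2. Over windows read on both alleles, of which this bin has 5, the ratio was 1.20 (limma adjusted p = 0.297). Fragments of this bin were read in 24 windows on 129 in each clone, against 9 in A6 and 11 in E2 on CAST.

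Another gene-free bin further out behaved alike in direction. At 83345001 to 83845000, between Ncam2 and the mitochondrial ribosomal protein gene Mrpl39, RPM was 9.86 in A6 and 10.0 in E2 on 129, against 2.53 and 5.52 on CAST. The CAST values of the clones lay far apart, both below 129. The log2 ratio was 1.29 (SE 0.41, limma adjusted p = 0.0280). With the running mean undone the adjusted p in limma was 0.0643, and with edgeR it was 0.0559. The ratio in windows read on both alleles was 0.10.

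Inside Cadm2, which encodes a synaptic adhesion molecule, the bin at 66345001 to 66845000 holds no gene start. RPM was 5.74 in A6 and 3.68 in E2 on 129, against 1.36 and 0.597 on CAST. This was the lowest of the 80 bins on CAST by its mean over clones. The log2 ratio was 1.84 (SE 0.56, limma adjusted p = 0.0236). The bin's own reads were 1186 in A6 and 928 in E2 on 129, against 211 and 102 on CAST. On these reads the limma adjusted p was 0.0375. With the clones pooled, a single window held 59.7% of the CAST reads of the bin. That was 108 of 211 reads in A6 and 79 of 102 in E2. On 129 the same window held 392 reads in A6 and 74 in E2. Over windows read on both alleles, of which this bin has 3, the ratio was 1.38 (limma adjusted p = 0.233). The bin is part of a run of 4 neighbouring bins from 65.345 to 67.345 Mb. All were higher on 129 in both clones, with a mean log2 ratio of 1.05.

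Among the 7 called bins, that of the olfactory receptor cluster holds the most gene starts. The bin at 58845001 to 59345000 holds 20 gene starts, each of an olfactory receptor, from Olfr177 to Olfr205. RPM was 4.80 in A6 and 5.81 in E2 on 129, against 1.38 and 1.12 on CAST, and the log2 ratio was 1.73 (SE 0.53, limma adjusted p = 0.0249). Its own reads numbered 782 in A6 and 1265 in E2 on 129, against 174 and 144 on CAST, where they came from 5 windows in each clone. With the clones pooled, one CAST window over Olfr181 and Olfr183 held 43.1% of the CAST reads of the bin (95% Wilson interval 37.8 to 48.6%). It held 67 of 174 reads in A6 and 70 of 144 in E2. The limma adjusted p on the bin's own reads was 0.0545.

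A gene-rich bin near the end of the chromosome was also higher on 129. The bin at 91845001 to 92345000 holds 7 gene starts, among them Atp5o, a subunit of ATP synthase, Mrps6, a mitochondrial ribosomal protein, Slc5a3, a myo-inositol transporter, and Kcne2, a potassium channel subunit. RPM was 9.72 in A6 and 11.2 in E2 on 129, against 5.95 and 3.34 on CAST. The log2 ratio was 1.14 (SE 0.39, limma adjusted p = 0.0452), the weakest of the 5, and on its own reads the adjusted p was 0.0690.

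Close to that bin lay the strongest opposite difference among the 80 bins. The bin at 90845001 to 91345000 holds the oligodendrocyte transcription factor genes Olig1 and Olig2, the synaptic phosphatase gene Synj1, the cilia gene Cfap298 and Paxbp1. RPM was 2.11 in A6 and 1.54 in E2 on 129, against 10.2 and 10.1 on CAST. This bin was thus among the highest on CAST and among the lowest on 129. The log2 ratio was -2.21 (SE 0.46, limma adjusted p = 0.000423), and its reads were 393 and 360 on 129, against 1430 and 1748 on CAST. With edgeR on the recovered reads the ratio was -2.66 (adjusted p = 4.48e-05). With the clones pooled, a single window between gene bodies gave 43.8% of its 129 reads (95% Wilson interval 40.3 to 47.4%). The clones were unlike there, with 56 of 393 reads in A6 and 274 of 360 in E2. The interval does not cover that spread.

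The other bin called lower on 129 rests on widely spaced clones. The bin at 93845001 to 94345000 holds Chaf1b, a histone chaperone subunit, the tight junction gene Cldn14, the transcription factor gene Sim2, the biotin ligase gene Hlcs and the corepressor gene Ripply3. RPM was 0.691 in A6 and 1.26 in E2 on 129, against 7.31 and 2.11 on CAST. Both clones went the same way, with log2 ratios of RPM of -3.40 in A6 and -0.74 in E2, and limma gave -1.64 (SE 0.57, adjusted p = 0.0483). The fit gave each bin the spread of bins of its level, so the gap between its own clones did not widen its standard error. One window inside Hlcs had 0 reads on 129 in both clones, against 479 of 983 reads in A6 and 105 of 335 in E2 on CAST. With the clones pooled that is 44.3% of the CAST reads of the bin (95% Wilson interval 41.6 to 47.0%). The interval does not cover the spread between clones. With windows read on both alleles, of which this bin has 1, the ratio was 0.23.

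**Figure D2:**
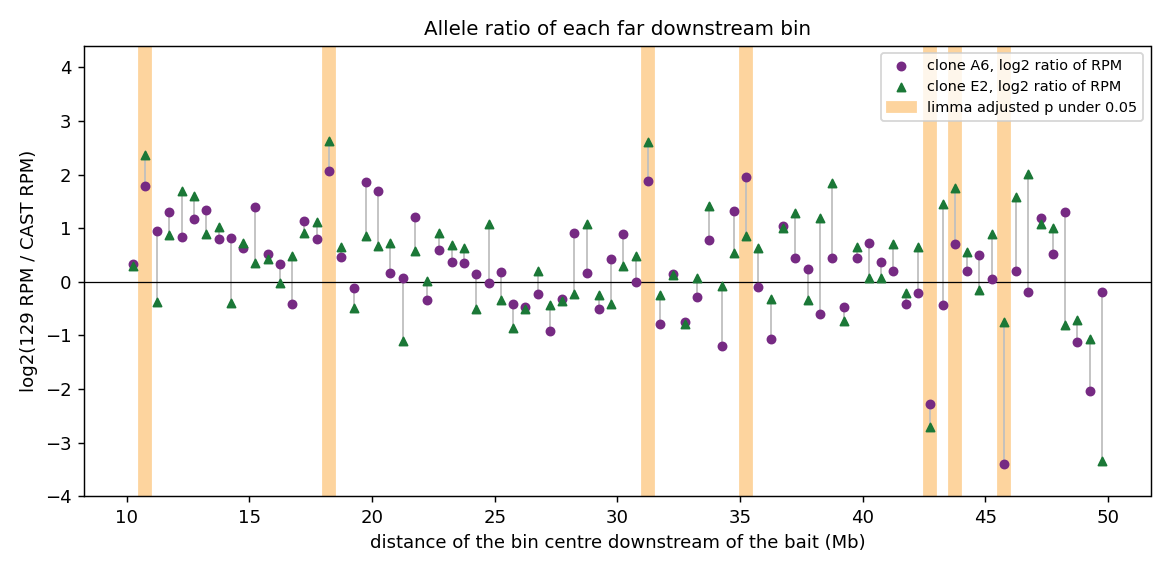
Log2 ratio of 129 RPM to CAST RPM in each of the 80 bins, for clones A6 (circles) and E2 (triangles), against the distance of the bin centre from the bait in Mb. Shading marks the 7 bins with a limma adjusted p under 0.05, 5 above 0 and 2 below, and points above 0 are denser in the nearest 10 Mb.

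Runs of neighbouring bins went 1 way in both clones without passing the test. The longest run of bins higher on 129 in both clones was 5 bins from 59.845 to 62.345 Mb, over the ephrin receptor gene Epha6 and the gene-free stretch after it, with a mean log2 ratio of 1.05. Its mean RPM was 8.19 in A6 and 8.37 in E2 on 129, against 3.88 and 3.63 on CAST. The gene-free bin at 60845001 to 61345000 within it had a limma log2 ratio of 1.23 (adjusted p = 0.0709), and the gene-free bin at 67845001 to 68345000 had 1.22 (adjusted p = 0.0584). Neighbouring bins share up to 150 kb of the running mean and are not independent.

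At the end of the chromosome, 3 neighbouring bins from 96.845 to 98.21 Mb were lower on 129 in both clones. They hold Dscam, a neural adhesion gene, Bace2, a membrane protease gene, Tmprss2, a serine protease gene, and the zinc finger genes Prdm15 and Zbtb21. Mean RPM over the 3 bins was 2.92 in A6 and 1.90 in E2 on 129, against 6.26 and 5.10 on CAST. The limma log2 ratios, in order along the chromosome, were -0.84, -1.32 and -1.37, and none passed (adjusted p = 0.224, 0.0796 and 0.0860). In the last of these the clones were far apart on 129, with 3.04 RPM in A6 and 0.582 in E2. The bin of the Ncam2 gene start, at 80845001 to 81345000, had a ratio of -0.71 (limma adjusted p = 0.227).

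The third question was where each allele made most contacts. On 129 the highest bin was at 64345001 to 64845000, with the gene starts of Csnka2ip, 4930453N24Rik and the zinc finger gene Zfp654. It had 12.2 RPM in A6 and 10.7 in E2 on 129, against 9.68 and 10.8 on CAST. It was also the third highest on CAST, and the alleles overlapped. Second on 129 was the bin nearest the bait, at 58345001 to 58845000, with the heme synthesis gene Cpox, the chemoattractant receptor gene Gpr15 and the sialyltransferase gene St3gal6. It had 10.1 RPM in A6 and 12.5 in E2 on 129, against 7.99 and 10.2 on CAST, and there too the alleles overlapped.

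The other bins highest on 129 were lower on CAST in both clones. These bins were ranked on their 129 values, so lower values on CAST can come from the choice alone. The bin of Pou1f1, the pituitary transcription factor gene, with the endosomal sorting gene Chmp2b and the transcription cofactor gene Vgll3, had 13.1 RPM in A6 and 8.84 in E2 on 129, against 5.97 and 4.69 on CAST. Over Pou1f1 with 5 kb on both sides, RPM was 14.7 and 9.87 on 129, against 0.740 and 1.03 on CAST. These are values of the running mean over 150 kb, so they take in the surroundings of the gene. The next bin, with Gm52259, had 12.1 and 8.27 RPM on 129, against 6.98 and 3.80 on CAST. The bin of App, the amyloid precursor protein gene, had 10.2 RPM in A6 and 10.4 in E2 on 129, against 4.92 and 5.18 on CAST. None of these passed the test, with limma adjusted p-values of 0.0854 for the Pou1f1 bin, 0.117 for the Gm52259 bin and 0.0917 for the App bin. The called bin of Atp5o was the fourth highest on 129.

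On CAST the highest bin was at 75345001 to 75845000, with the start of Robo2, an axon guidance receptor gene, and of Lipi, Rbm11 and the chaperone gene Hspa13. It had 7.35 RPM in A6 and 6.70 in E2 on 129, against 13.8 and 9.02 on CAST. Second was the bin of N6amt1, Usp16, Cct8 and Bach1, genes of a methyltransferase, a deubiquitinase, a chaperonin subunit and a heme-sensing repressor. It had 6.63 and 6.81 RPM on 129, against 9.18 and 11.4 on CAST. The bin beside App, with Mrpl39, the junction adhesion gene Jam2, Atp5j and the transcription factor gene Gabpa, had 5.16 and 6.93 RPM on 129, against 10.8 and 8.70 on CAST. In these 3 bins both 129 values lay below both CAST values, which ranking on CAST can bring about by itself. The limma adjusted p-values were 0.247 for the Robo2 bin, 0.323 for the Usp16 bin and 0.264 for the Gabpa bin. The bin of the metalloproteinase gene Adamts5 had 10.7 and 8.73 RPM on 129, against 9.03 and 11.1 on CAST, and the clones went opposite ways. Of the 6 bins highest on each allele, 1 was shared. Of the 6 highest on 129, 2 were gene-rich, and on CAST those other than the bins of Csnka2ip and Adamts5 were.

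Gene content was then set against the allele ratio. Bins were classed by protein-coding gene starts in GRCm38.p6, as gene-free (0 starts, 33 bins), with 1 to 3 starts (27 bins) or gene-rich (4 or more, 20 bins). Gene-free bins averaged 6.76 ± 0.18 RPM on 129 and 4.95 ± 0.08 RPM on CAST (SD, n = 2 clones), a log2 ratio of 0.45 ± 0.06. Bins with 1 to 3 starts averaged 7.79 ± 0.76 RPM on 129 and 6.27 ± 0.31 RPM on CAST, a ratio of 0.31 ± 0.07. Gene-rich bins averaged 5.91 ± 0.13 RPM on 129 and 6.08 ± 0.69 RPM on CAST, and here the clones went opposite ways, with -0.17 in A6 and 0.10 in E2.

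Put as a preference, the log2 ratio of gene-rich to gene-free bins was -0.19 ± 0.01 on 129 and 0.29 ± 0.14 on CAST. The difference, 129 minus CAST, was -0.58 in A6 and -0.39 in E2. Relative to gene-free bins, gene-rich bins were thus contacted less on 129 and more on CAST in both clones, and the difference has no test. Among gene-free bins 19 of 33 were higher on 129 in both clones and 5 higher on CAST, and limma called 3 higher and 0 lower on 129. Among gene-rich bins the counts were 10 and 7 of 20, and 2 were called in each direction. Over all bins tested in the table, 34.2% were higher on 129 in both clones, 33.2% were higher on CAST and 4.3% were called in each direction. Over windows read on both alleles the difference in preference was -0.091, and the ratio of gene-free bins was -0.10. In that set of windows the median limma ratio of all bins in the table is itself -0.32.

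Gene content and distance move together here. The median gene-rich bin lay 42.5 Mb from the bait and the median gene-free bin 25.25 Mb. Within 10 to 20 Mb the difference in preference was -0.51 ± 0.09, from 3 gene-rich and 8 gene-free bins. From 20 to 30 Mb it was -0.80 ± 0.31, where the only gene-rich bin is that of Robo2 and Hspa13, and from 30 to 40 Mb it was -1.13 ± 0.15, from 2 gene-rich and 11 gene-free bins. Over 40 Mb away, with 14 gene-rich bins and 1 gene-free bin, it was -0.66 in A6 and 0.39 in E2. The stretch with most gene-rich bins therefore showed no shared direction. In the far upstream end the difference was -0.29 in A6 and -0.11 in E2, and whether the ends differ was not tested.

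**Figure D3:**
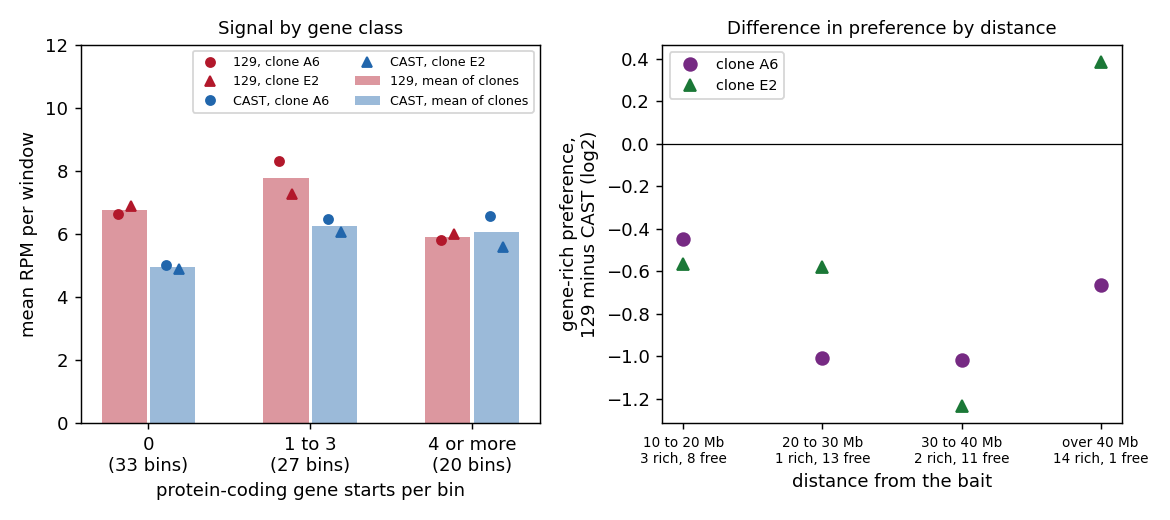
Left, mean RPM in gene-free bins, bins with 1 to 3 gene starts and gene-rich bins, on 129 (red) and CAST (blue), with a bar for the mean of the clones and a point for each clone. Right, the gene-rich preference on 129 minus that on CAST (log2), by distance from the bait, for each clone; it is below 0 in both clones up to 40 Mb and the clones part beyond.

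The genes themselves were read over the gene and 5 kb on both sides. Of the 219 protein-coding genes far downstream, 89 were higher on 129 in both clones, 66 were higher on CAST and 64 differed in direction, with a median log2 ratio of 0.34. On their own reads, with the running mean undone, 63 were higher on 129 in both clones and 48 higher on CAST. Among the 71 genes with at least 10 own reads in every column, which leaves out genes read on 1 allele alone, 18 were higher on 129 and 26 higher on CAST. No reads of their own were found in 66 genes, whose value is then that of their surroundings. Genes of a cluster share windows and are not independent, so the lists below are descriptions.

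Olfactory receptor genes, which encode odorant receptors of the nose, lie in 3 neighbouring bins. Of 25, 19 were higher on 129 in both clones, 0 were higher on CAST and 6 differed, and the median log2 ratio was 2.18. Olfr201, Olfr202 and Olfr203 had 2.31, 2.30 and 2.84 RPM in A6 and 8.52, 8.52 and 11.1 RPM in E2 on 129, against 0 RPM on CAST in both clones. At the other end of the list Olfr193 and Olfr194 had 0.765 and 0.769 RPM in A6 and 1.05 RPM each in E2 on 129, against 2.42 RPM in A6 and 0.496 RPM in E2 on CAST for each. Of the 25 genes, 12 had no reads of their own, and 2 had at least 10 in every column. On own reads 1 of these 2 was higher on 129 and 0 were higher on CAST. The directions of the list thus rest mostly on values shared with their surroundings.

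Keratin-associated protein genes, structural genes of hair, were mixed. Of 24, 9 were higher on 129, 4 higher on CAST and 11 differed. On own reads, among the 6 with at least 10 in every column, 0 were higher on 129 and 4 higher on CAST. In 2 of these 6 the clones shared a deposited direction, and own reads met it in 0 of the 2. Krtap6-5 had 10.7 RPM in A6 and 10.4 in E2 on 129, against 1.74 and 3.82 on CAST. Krtap20-2 had 4.22 and 1.08 RPM on 129, against 6.91 and 11.1 on CAST, yet its own reads were 241 and 45 on 129, against 0 and 0 on CAST. Its deposited value is thus that of its neighbours.

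Among 7 axon guidance and neural adhesion genes, which are long and had reads of their own, 3 were higher on 129, 2 higher on CAST and 2 differed. Epha6 had 8.61 RPM in A6 and 6.97 in E2 on 129, against 3.86 and 4.83 on CAST. Cadm2 had 8.0 and 6.30 RPM on 129, against 5.85 and 4.29 on CAST. Ncam2 went the other way, with 4.38 and 5.52 RPM on 129, against 10.0 and 8.32 on CAST, and so did Robo2, with 4.80 and 5.27 RPM on 129, against 6.35 and 6.53 on CAST. Over Dscam and Epha3 the clones went opposite ways.

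Of 10 transcription regulator genes, 3 were higher on 129, 5 higher on CAST and 2 differed. Among the 4 with at least 10 own reads in every column, 1 was higher on 129 and 2 higher on CAST. Olig1 had 0.272 RPM in A6 and 0.942 in E2 on 129, against 11.2 and 8.70 on CAST, and Olig2 had 2.14 and 3.95 RPM on 129, against 16.5 and 12.5 on CAST. Neither has reads of its own. Erg, an ETS factor gene, had 8.32 and 9.61 RPM on 129, against 2.87 and 3.75 on CAST, with own reads of 673 and 868 on 129, against 190 and 311 on CAST. Runx1, a blood transcription factor gene, had 5.28 and 3.15 RPM on 129, against 7.75 and 7.23 on CAST.

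Ion channel genes were higher on 129 in 4 of 5. Kcnj15, a potassium channel gene, had 8.60 RPM in A6 and 15.9 in E2 on 129, against 2.75 and 1.52 on CAST, and Kcne2 had 8.35 and 5.10 RPM on 129, against 1.80 and 0.331 on CAST. The clones differed over Kcne1. Genes with housekeeping functions numbered 10 higher on 129, 7 higher on CAST and 4 that differed, of 21. Of these genes, 8 had no reads of their own. On own reads, among the 7 with at least 10 in every column, 2 were higher on 129 and 3 higher on CAST. Atp5o had 17.3 and 18.2 RPM on 129, against 6.26 and 2.31 on CAST. Paxbp1 had 2.75 and 0.481 RPM on 129, against 13.4 and 15.6 on CAST, with own reads of 146 and 25 on 129, against 347 and 263 on CAST. The highest and lowest log2 ratios of this list, 3.05 over Morc3 and -3.68 over Chaf1b, belong to genes with no reads of their own.

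The smaller lists gave few shared directions. In the interferon receptor cluster, Ifnar1, Ifnar2, Il10rb and Ifngr2, the clones differed in all 4, with log2 ratios below 0 in A6, down to -0.37, and above 0 in E2, from 0.55 up to 2.71. Of 3 claudin genes Cldn14 was higher on CAST, with 0.739 RPM in A6 and 0.107 in E2 on 129, against 6.03 and 0.723 on CAST, and the clones differed over Cldn8 and Cldn17. Of the metalloproteinase genes Adamts5 was higher on 129, with 13.8 and 10.0 RPM on 129, against 6.66 and 3.14 on CAST, while the clones differed over Adamts1. Over the whole bin of Adamts5 the clones went opposite ways. In these smaller lists 0 genes had at least 10 own reads in every column.

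Many of the windows that carried the reads were read on 1 allele alone. Of 2235 far downstream windows with reads, 1036 were read on 129 alone, 704 on both alleles (31.5%, 95% Wilson interval 29.6 to 33.5%) and 495 on CAST alone. Windows read on 129 alone held 53.7% of the 129 reads, and windows read on CAST alone held 35.0% of the CAST reads. Between clones the windows recurred: of the windows read on 129 in either clone 83.9% were read in both, and on CAST 82.1% were. More windows were read on 129 in the rest of the genome too, with a log2 ratio of window numbers of 0.57 in A6 and 0.54 in E2 far downstream, and of 0.65 and 0.67 on the other autosomes.

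In windows read on both alleles the ratio of the region was below 0. The log2 ratio of RPM, 129 to CAST, was -0.26 in A6 and -0.14 in E2 there, a mean of -0.20 ± 0.08, against 0.25 and 0.32 over all far downstream windows. Windows read on both alleles gave -0.22 ± 0.02 over chromosome 16 as a whole, -0.53 ± 0.04 on the other autosomes and -0.74 ± 0.21 in the far upstream end. Values below 0 are thus common to this set of windows, and the far downstream value is close to that of the whole chromosome. Reads can be given to an allele only where its sequence differs from the other, and which windows could be read on both was not tested.

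**Figure D4:**
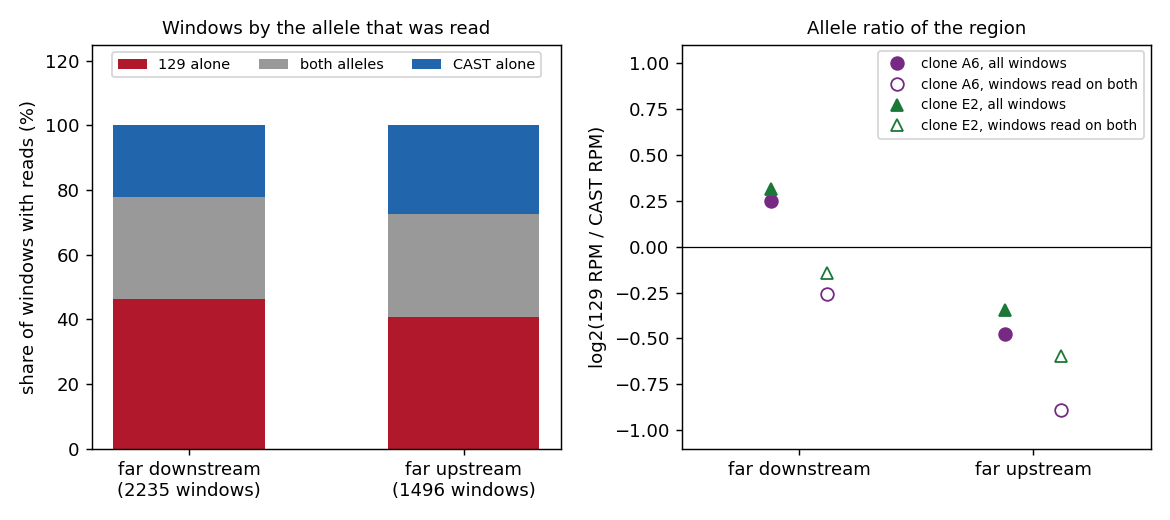
Left, the share (%) of windows with reads that were read on 129 alone, on both alleles or on CAST alone, far downstream (2235 windows) and far upstream (1496 windows). Right, the log2 ratio of 129 RPM to CAST RPM in each clone over all windows (filled) and over windows read on both alleles (open); the far downstream ratio is above 0 with all windows and below 0 with the windows read on both.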

How the data were processed

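4C-seq of 2 hybrid clones was read from 1 deposited table of RPM. The authors split the reads by allele, scaled them to RPM and smoothed them in 5-kb windows of mm10, per the headers of the deposited table. Bowtie2 is listed in the submitters' processing notes, as are mm10 and mm9, and its version is not given in the sources used here. The smoothing was found from the values to be a running mean of 30 windows. When it was undone, 100% of values came out as whole reads (tolerance 0.01) and 0 windows fell below 0. A table of inbred libraries, in another build, was not used.

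Mean RPM was taken over bins of 500 kb stepped from the bait plus 10 Mb, without the 50 kb around the bait and with at least 50 windows a bin. Bins with a mean of at least 0.1 RPM (4856) entered a limma fit (version 3.58.1, R 4.3.3) of log2(RPM + 0.5) with a spread that depends on the level and with clone as block. P-values were adjusted by Benjamini-Hochberg, with a threshold of 0.05. The pairing is given by the design, since both alleles of a clone come from 1 library. edgeR 4.0.16 was run on the recovered reads as an alternative, also with DESeq2 1.42.0 size factors. Tables and figures were made in Python 3.11.15 with pandas 2.3.3, numpy 2.4.6, matplotlib 3.10.9 and scipy 1.17.1.

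Gene starts came from RefSeq (GRCm38.p6, the build of mm10). Of 219 genes, 191 took their start from the promoter table and 28 their middle, of which 2 span a bin limit. Bins named are the 6 highest on each allele and the 6 highest and 6 lowest ratios, from called bins first and then from bins with the same sign in both clones. Genes named are up to 3 a named bin and those at both ends of each list. Other genes of a named bin were named after their values were seen. The members, lists and tests were chosen with earlier results of these data known. Alternatives changed the pseudocount, filter, block, scaling, smoothing, window set, bin size, gene classes, distance class, clones and, chosen after seeing the data, the counting of Olfr and Krtap gene starts.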

Additional observations from a re-analysis of the deposited data

Results flagged for a closer look

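The far downstream and far upstream ends of chromosome 16 went opposite ways in both clones. The log2 ratio of mean RPM, 129 to CAST, was 0.25 in A6 and 0.31 in E2 far downstream, and -0.48 in A6 and -0.35 in E2 far upstream. The ends differed by 0.69 in the mean of the clones, and this difference was not tested. Over windows read on both alleles the ratio was below 0 at both ends, with a mean of -0.20 far downstream and -0.74 far upstream.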

How the results depend on the processing

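The 7 bins called between the alleles were between 5 and 9 with a pseudocount of 0.1 (9) or 2 RPM (5), without the replicate block (9), with chromosome 16 totals (6) or region medians (6) as scale, without the trend (5), with edgeR and TMM (6) and in 250-kb bins (9 of 159). The count was 0 with no filter on low values, which tested 5450 bins with a prior of 2.16 degrees of freedom and called 0 in the table (29 of the 80 at an unadjusted p under 0.05). It was 4 with the running mean undone, 4 with edgeR and DESeq2 size factors, and 12 in the fit over chromosome 16 alone. It was 0 over windows read on both alleles (11 unadjusted) and 0 of 40 in 1-Mb bins (11 unadjusted), where the cause was not tested. Leaving out a clone leaves no residual degrees of freedom, so no count can be had. The replicate block is the pairing of alleles within a clone, and dropping it ended none of the 7 calls.

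The share ratio of 0.25 was 0.29 with the running mean undone, 0.28 with the median of windows, 0.019 over windows read on both alleles, and 0.22 to 0.27 leaving out either clone. The difference in gene-rich preference, -0.48, was -0.28 with 6 or more starts as gene-rich, -0.26 in 250-kb bins, -0.091 over windows read on both alleles, and -0.80, -1.13 and -0.14 within the outer distance classes, from near to far. It was -0.58 to -0.39 leaving out either clone, and -0.59 without Olfr and Krtap starts. The gene-free ratio of 0.45 was 0.52 as a median, 1.06, 0.13 and 0.18 within 10 to 20, 20 to 30 and over 40 Mb, 0.41 to 0.49 leaving out either clone, and -0.10 over windows read on both alleles, a change of sign. The ratio of bins with 1 to 3 starts, 0.31, was 0.18 with 6 or more starts as gene-rich, 0.48 as a median, 0.078 in 250-kb bins, 0.44, 0.22 and 0.18 within the same distance classes, 0.26 to 0.36 leaving out either clone, and -0.30, with its sign changed, over windows read on both alleles. The gene-rich ratio of -0.04 was 0.17 with 6 or more starts, 0.16 in 250-kb bins, 0.55, -0.67 and -0.65 within the 3 classes up to 40 Mb, and -0.17 to 0.10 leaving out either clone.

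Among the named bins 220 values kept their direction and side of the threshold, 30 lost the call, 8 gained it and 6 reversed. Only a called bin can lose a call, so the 220 include bins with no call to lose. The Atp5o bin kept its call only with a pseudocount of 0.1 RPM, without the replicate block and in the fit over chromosome 16 alone. The bin at 83345001 kept its call there, with a pseudocount of 2 RPM and with chromosome 16 totals. The Olig2 bin, the called bin inside Cadm2 and the bin at 79345001 lost theirs only without the filter and over windows read on both alleles. Over windows read on both alleles, where the median of all bins in the table is -0.32 (0.02 with all windows), the bins of Csnka2ip (-0.35), Pou1f1 (-0.24), Gm52259 (-0.31) and Hlcs (0.23) changed sign, so signs there are not to be read against 0. The Csnka2ip bin also reversed with region medians as scale (-0.12) and the Adamts5 bin with the running mean undone (0.0061). Leaving out either clone gave -0.018 to 0.33 for the Csnka2ip bin and -0.34 to 0.24 for the Adamts5 bin, so each clone decides their sign. The lowest read number of any of the 80 bins was 119 in A6 and 106 in E2 on 129, and 174 and 102 on CAST. Each of these lows lay in a different bin.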

Other observations

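Gene-rich bins were not alike. The 12 bins with 4 to 6 gene starts had a log2 ratio of mean RPM, 129 to CAST, of -0.51 in A6 and -0.18 in E2, and 6 of them were higher on CAST in both clones. These include the bins of Olig2, Sim2, Gabpa and Robo2. The 8 bins with 7 or more gene starts had 0.32 in A6 and 0.45 in E2, and 6 of them were higher on 129 in both clones. These include the bin of 20 olfactory receptor genes, the bin of Krtap19-3 and the bin of Atp5o, while that of Usp16 was higher on CAST in both. The split at 7 starts was chosen after the values were seen, and it was not tested.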
